A study of Mus musculus with 14 samples.

Results

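Chaperones and genes of the endoplasmic reticulum stress response were followed in mouse fibroblasts that lack Ptdsr (current symbol Jmjd6). The genes were picked by a rule on their symbols, which was set with earlier results of these data known. They are the heat shock protein families Hsp90, Hsp70 (Hspa), Hsp110 (Hsph), Hsp60 and its partner (Hspd1, Hspe1) and the small heat shock proteins (Hspb), the J-domain proteins (Dnaja, Dnajb, Dnajc), the subunits of the cytosolic chaperonin (Cct), the protein disulphide isomerases (Pdia, P4hb), the lectin chaperones Calr and Canx, and the stress genes Xbp1, Atf4, Ddit3 and Herpud1. The platform named 74 of them on 117 probes, and 70 had a value on at least 10 arrays. These 70 are called the members here, out of 9290 genes that met the same limit. The 4 left out were Cct5, Dnajb3 and Pdia6, each with 9 values, and Hspa1b with 7. Probes with 1 gene symbol named none of Hspa8, Hsp90ab1, Atf6, Hyou1 or heat shock factor 1 (Hsf1), so the results do not cover them.

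Chaperones bind unfolded stretches of other proteins and release them in cycles, most of them driven by ATP, so that the chains fold instead of clumping. In the endoplasmic reticulum, where fibroblasts fold the collagens and other proteins they secrete, the Hsp70 protein BiP (Hspa5) and the Hsp90 protein Grp94 (Hsp90b1) work beside the sugar-binding chaperones calreticulin and calnexin and the enzymes that form disulphide bonds. When unfolded proteins collect there, sensors in the membrane start the unfolded protein response, in which the factors Atf6, Xbp1 and Atf4 raise the chaperones' transcription, and Ddit3 follows under lasting stress. In the cytosol, heat shock factor 1 does the like for Hsp70, Hsp90, their J-domain partners and the small heat shock proteins.

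Each of 14 two-colour cDNA arrays compared total RNA of Ptdsr-/- fibroblasts with RNA of wild-type (Ptdsr+/+) fibroblasts, and the labels give no treatment and no age. Replicates 1, 3, 4, 7, 8, 9 and 13 carried Cy5-labelled knockout RNA, and replicates 2, 5, 6, 10, 11, 12 and 14 carried it in Cy3. The design names 2 different cultures without tying an array to either, so p-values measured the spread between arrays, which may be technical, and the wild-type RNA served as 1 control whose own spread was not measured. Each value is a log2 ratio, knockout over wild type, taken after each array's median was set to 0, so 1 unit is a change by a factor of 2.

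No label states which way the ratios run, and knockout over wild type is only the likely reading. A code for extreme ratios had a positive sign on each of the 7 Cy5-knockout arrays and a negative one on each of the 7 Cy3-knockout arrays, which is how values look when the dye-swapped arrays have already been turned to knockout over wild type. If they had not been turned, the means below would not be knockout effects, and that reading was run as an alternative. Between 13165 and 19615 of 20355 probes had a usable ratio on an array, and replicates 1 and 2 had the most missing values, 5805 and 6875. The ratios carry no intensity, so neither the level of a gene nor how well it was measured is known, and whether the defining markers of fibroblasts were present cannot be read from them. The better covered Jmjd6 probe had a mean of -0.51 ± 1.14 (SD, n = 14) and lay below 0 on 12 of 14 arrays, with replicate 2 at 2.92. A second Jmjd6 probe had 5 values with a mean of 0.27 ± 1.10 (SD), and 1 of them lay below 0. The labels do not say whether either probe lies in the deleted stretch, and one that does not checks nothing.

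The promoters of the endoplasmic reticulum members are shown first, because the values below differ among genes that carry the same element. The sequences are from RefSeq (build GRCm38.p6) and give the 250 bases before the annotated start, 5′ to 3′ on the gene's strand. Capitals mark each match to the endoplasmic reticulum stress element (CCAAT, then 9 bases of any kind, then CCACG), searched on both strands. A match is a description of the letters and not evidence of binding.
Hspa5 (chr2:34771840-34772089, plus strand): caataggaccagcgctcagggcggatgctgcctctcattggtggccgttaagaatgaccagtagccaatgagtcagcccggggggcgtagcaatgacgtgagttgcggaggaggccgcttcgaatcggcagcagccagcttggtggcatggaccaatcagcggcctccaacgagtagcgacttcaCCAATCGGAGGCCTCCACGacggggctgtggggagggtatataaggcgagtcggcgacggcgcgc
Calr (chr8:84846932-84847181, minus strand): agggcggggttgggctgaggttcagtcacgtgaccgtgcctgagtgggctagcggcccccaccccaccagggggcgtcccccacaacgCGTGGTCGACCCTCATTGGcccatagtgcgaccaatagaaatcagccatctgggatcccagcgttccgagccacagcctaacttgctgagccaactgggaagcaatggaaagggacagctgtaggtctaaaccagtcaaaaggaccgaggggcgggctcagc
Hsp90b1 (chr10:86705445-86705694, minus strand): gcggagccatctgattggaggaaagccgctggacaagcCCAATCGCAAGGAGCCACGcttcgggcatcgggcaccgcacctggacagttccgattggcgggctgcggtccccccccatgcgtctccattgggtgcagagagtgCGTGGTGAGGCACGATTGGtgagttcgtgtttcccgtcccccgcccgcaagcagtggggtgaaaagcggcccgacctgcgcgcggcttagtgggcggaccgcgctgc
Canx (chr11:50325674-50325923, minus strand): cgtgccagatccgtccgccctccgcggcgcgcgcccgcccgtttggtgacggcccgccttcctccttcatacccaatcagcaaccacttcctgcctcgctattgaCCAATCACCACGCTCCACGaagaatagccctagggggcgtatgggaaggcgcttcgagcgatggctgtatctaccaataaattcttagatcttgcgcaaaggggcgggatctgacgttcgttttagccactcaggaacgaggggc
Dnajc3 (chr14:118937682-118937931, plus strand): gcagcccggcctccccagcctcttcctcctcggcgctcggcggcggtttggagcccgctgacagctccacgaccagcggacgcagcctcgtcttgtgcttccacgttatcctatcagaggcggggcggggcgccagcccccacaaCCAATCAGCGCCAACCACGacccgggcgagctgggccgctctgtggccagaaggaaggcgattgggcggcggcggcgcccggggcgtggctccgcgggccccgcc

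The first base of the match lay 65 bases before the start in Hspa5, 162 in Calr, 145 in Canx and 105 in Dnajc3, and Hsp90b1 held a pair of matches, at 212 and 107 bases. In Calr and in the nearer match of Hsp90b1 the element is read on the opposite strand. Of the 70 members, 60 had at least 1 promoter window in the RefSeq table, each running from 250 bases before the start to 50 after it. The element was found in the windows of these 5 members (8.33% of the 60), against 0.137% of 27025 genes and 0.119% of all 32851 windows. The disulphide isomerase gene Pdia6 also held it, but had values on 9 arrays and was not tested.

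Herpud1 carries the shorter second form of the element (ATTGG, 1 base of any kind, CCACG), and the mitochondrial chaperonin gene Hspd1 carries the heat shock element as triplets (GAA, TTC and GAA, or the reverse complement TTC, GAA and TTC, each 2 bases apart, which overlap here). Both forms were searched after the values had been seen. Capitals mark the matches.
Herpud1 (chr8:94386179-94386428, plus strand): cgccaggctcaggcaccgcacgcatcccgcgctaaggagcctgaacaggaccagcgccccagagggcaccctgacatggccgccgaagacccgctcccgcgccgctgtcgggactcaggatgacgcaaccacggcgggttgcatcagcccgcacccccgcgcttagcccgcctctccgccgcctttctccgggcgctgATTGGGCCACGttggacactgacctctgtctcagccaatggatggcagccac
Hspd1 (chr1:55087933-55088182, minus strand): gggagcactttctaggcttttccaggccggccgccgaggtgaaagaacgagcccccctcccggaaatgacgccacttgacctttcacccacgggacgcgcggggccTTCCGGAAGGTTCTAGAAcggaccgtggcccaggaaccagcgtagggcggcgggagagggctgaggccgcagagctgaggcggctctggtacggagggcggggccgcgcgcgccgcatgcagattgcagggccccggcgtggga

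The match in Herpud1 began 52 bases before its start. The second form was found in 0.0365% of all windows and 0.0444% of genes, and in 2 of the 60 members (3.33%, Herpud1 and Dnajb11). The triplet was found in 0.603% of windows and 0.662% of genes, and in 4 members (6.67%), namely Hspd1, Hspe1, Hsph1 and Dnajb6. Hspd1 and Hspe1 lie head to head and share part of this window, so their matches are the same bases. The pairs GAANNTTC and TTCNNGAA, which the triplets contain, stood in 7.86% and 8.52% of windows. Per gene, GAANNTTC was found in 15 of the 60 members (25%) against 9.04% of all genes, and TTCNNGAA in 7 (11.7%) against 9.6%.

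None of the 70 members passed the test for a difference between knockout and wild type. In the fit over all 9290 genes (limma, intercept against 0 with a dye term, Benjamini-Hochberg adjustment), 0 of 70 members had an adjusted p below 0.05, where 0.0861% of all genes (8 genes, all lower in the knockout) did. The smallest adjusted p of a member was 0.832. At an unadjusted p below 0.05 there were 2 members, Dnaja3 and Hspb7, against 5.35% of all genes. Both lay below 0, as did 2.95% of all genes at that p, and 0 members lay above it, against 2.4% of all genes. No member had the same sign on every array that measured it, which 0.237% of all genes had. In such bulk RNA, fewer cells of a type and less RNA per cell cannot be told apart.

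The members' means ran from -1.06 to 0.60, with 41 above 0 and 29 below, and their median was 0.052 against 0.0022 for all genes. A mean above 0 was seen for 58.6% of members and 50.4% of all genes. The mean exceeded 0.5 in size for 3 members (Dnaja3, Dnajc11 and Dnaja1), against 7.21% of all genes. With the Cy3 arrays turned it exceeded 0.5 for 5 members (Atf4, Hspa1l, Dnajb1, Dnajc7 and Dnajc11), against 10.9% of all genes, and 39 means lay above 0. The SD between arrays ran from 0.267 to 2.01 over the members, with a median of 0.759 against 0.813 for all genes. The intervals treat the arrays as independent, so they cover the scatter between arrays and not that between cultures, and they bound a knockout effect only if the direction holds. The 95% interval of the limma estimate lay within a 2-fold change either way for 59 members (84.3%, against 81.1% of all genes) and within a 1.5-fold change for 38 (54.3%, against 42.6%).

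**Figure D1:**
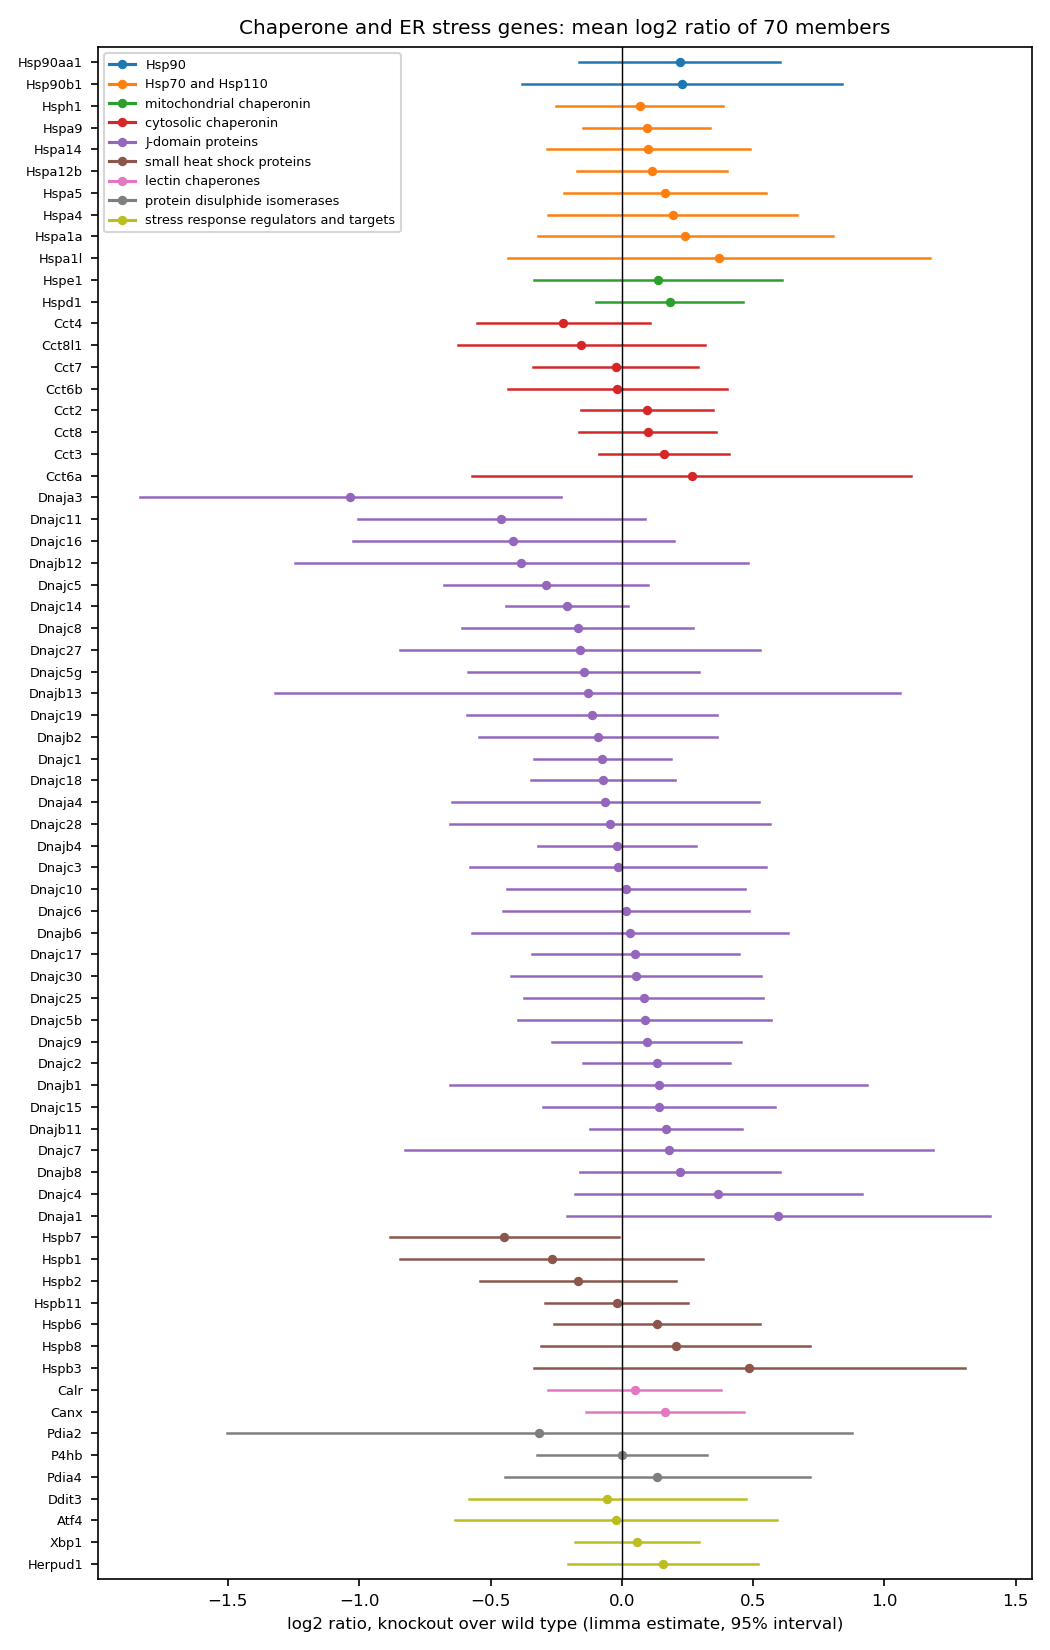
The limma estimate of the log2 ratio of knockout over wild type (horizontal axis) for each of the 70 members, coloured by role, with its 95% interval as a bar. The intervals of Dnaja3 and Hspb7 lie below 0 before adjustment, and those of the other 68 members include 0.

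**Figure D2:**
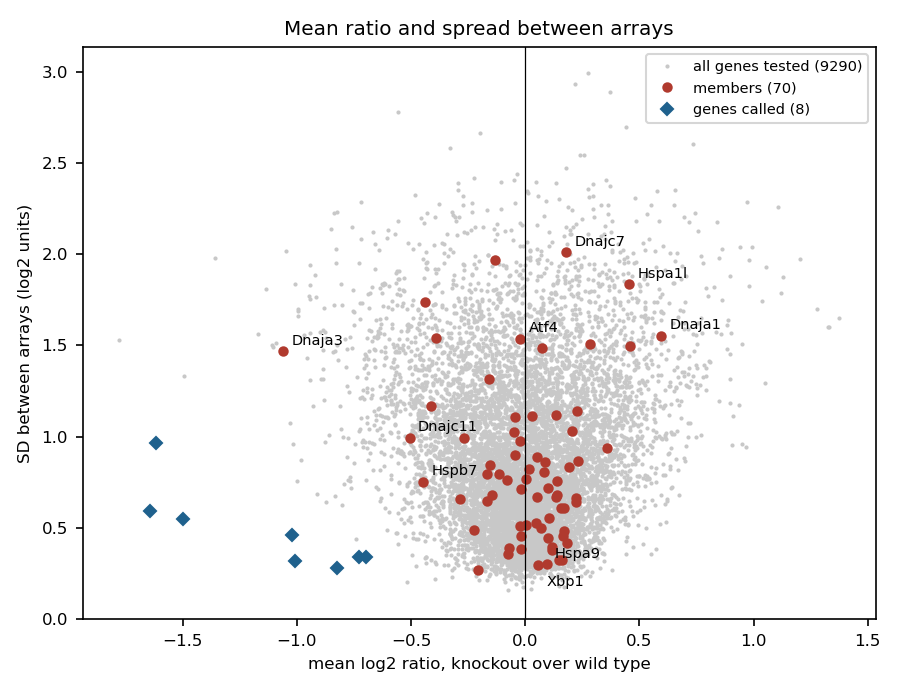
Mean log2 ratio of knockout over wild type (horizontal) and SD between arrays (vertical) for each gene tested, with the 70 members as red circles and the 8 genes called over all genes as blue diamonds. The members sit within the cloud of all genes, and none is a called gene.

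The Hsp70 chaperone of the endoplasmic reticulum, BiP, is encoded by Hspa5. Its mean of 0.17 ± 0.61 (SD, n = 13) did not pass the test (limma, 95% interval -0.22 to 0.55, adjusted p = 0.934). The arrays were far from alike. Replicates 7, 8, 9 and 10 stood at 1.18, 1.09, 0.85 and 0.74. The other 9 arrays with a value lay between -0.50 and 0.24, among them replicates 1 to 4 at -0.29, -0.50, -0.34 and -0.49, and replicate 13 at -0.38. Replicates 7 to 10 were picked because they were high, so their distance from the others is no separate result. Replicates 7, 8 and 9 carried the knockout in Cy5 and replicate 10 in Cy3, and the part of the dye was not tested.

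Herpud1, a membrane protein of the endoplasmic reticulum that takes part in the degradation of misfolded proteins, was high on the same arrays. Replicates 7, 8, 9 and 10 stood at 1.2, 1.01, 0.95 and 0.69. Replicates 1 to 6 all lay below 0, at -0.29, -0.60, -0.47, -0.64, -0.17 and -0.26, and replicates 11 to 14 all lay above it, at 0.22, 0.11, 0.27 and 0.18. Its mean was 0.16 ± 0.61 (SD, n = 14), with a 95% interval of -0.20 to 0.52 and an adjusted p of 0.934 (limma).

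Ddit3, the transcription factor CHOP of prolonged stress, followed with 1.31, 1.19, 1.0 and 0.585 on replicates 7, 8, 9 and 10. Its remaining 9 values ran from -1.89 on replicate 1 to 0.068 on replicate 12, with replicates 3, 4 and 5 at -0.64, -0.59 and -0.59. These cancelled to a mean of -0.05 ± 0.90 (SD, n = 13, limma 95% interval -0.58 to 0.47).

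Calr, the calcium-binding lectin calreticulin, had its 4 highest values on the same 4 arrays, at 0.91, 0.48, 0.60 and 0.25, but the step was smaller. Replicates 6, 5 and 2 came next at 0.20, 0.18 and 0.15, so replicate 10 stood only just above them. Replicate 1 was the lowest at -1.36. The mean was 0.05 ± 0.52 (SD, n = 14).

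Xbp1, the factor activated by splicing of its own messenger RNA, showed the pattern on replicates 7, 8 and 9 at 0.61, 0.47 and 0.45, while replicate 10 stood at 0.094. Its other values lay between -0.44 on replicate 12 and 0.13 on replicate 14. Its mean of 0.06 ± 0.30 (SD, n = 14) had one of the narrower intervals, -0.18 to 0.29. Ratios of total transcript do not separate the spliced from the unspliced form.

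The pattern was noticed after the values had been seen, and replicate numbers are no labelled groups, so it was not tested. Replicates 7, 8 and 9 held the 3 highest values for 5 of 70 members (Hspa5, Herpud1, Ddit3, Calr and Xbp1), 7.14% against 1.39% of all genes. Replicates 7 to 10 held the 4 highest values for 4 members (all but Xbp1), 5.71% against 0.517% of all genes. The reverse, the 3 lowest values on replicates 7, 8 and 9, was seen for 1 member, Hspb8, against 0.667% of all genes. The first count held none of the 34 J-domain proteins, 8 cytosolic chaperonin genes or 3 disulphide isomerases. The pattern was not limited to the endoplasmic reticulum, since the cytosolic tubulin-folding cofactors Tbca and Tbce, which are no members, also showed it. With the Cy3 arrays turned, replicate 10 would change its sign, and replicates 7, 8 and 9 held the 3 highest values for 6 members (the same 5 and Hspa9), 8.57% against 1.49% of all genes.

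Other measures can be set beside these arrays. Replicates 8, 10 and 9 had the fewest missing probe values, 649, 850 and 1117, with replicate 12 at 1267 and replicate 7 at 1332. Of 14 fibroblast markers tested, Dcn and Pdgfrb (14.3%) also had their 3 highest values on replicates 7, 8 and 9, against 1.39% of all genes. Of 10 macrophage and leukocyte markers none did. Among these 10, Cybb (10%) had its 3 lowest values there, against 0.667% of all genes. The part of these in the pattern was not tested. Which culture each array came from is not given in the labels, so culture and array cannot be told apart.

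**Figure D3:**
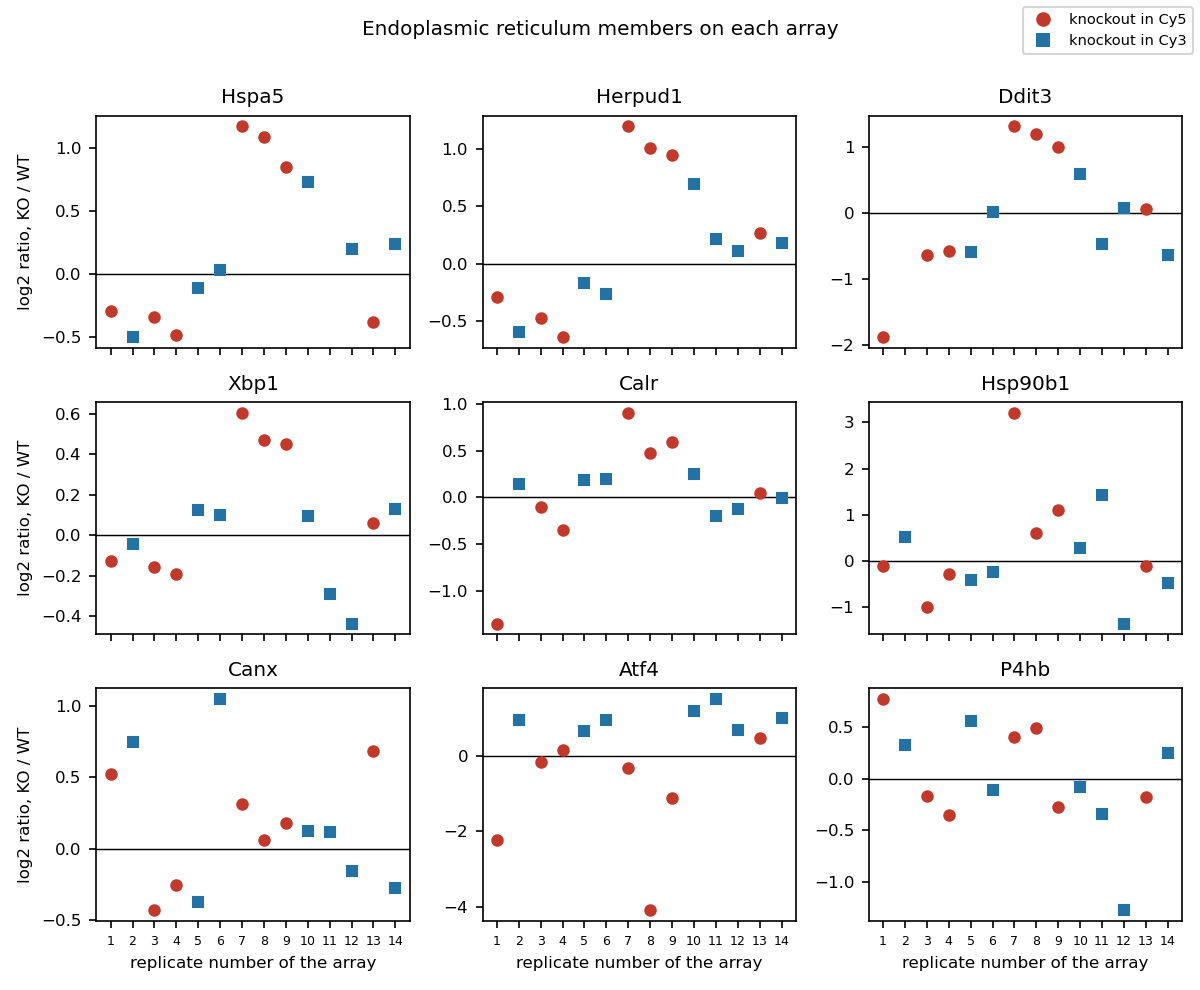
Log2 ratio of knockout over wild type (vertical, with its own scale in each panel) by replicate number of the array (horizontal) for 9 members of the endoplasmic reticulum and its stress response, with red circles for the knockout in Cy5 and blue squares for Cy3. Hspa5, Herpud1, Ddit3 and Calr are highest on replicates 7 to 10, whereas Canx, Atf4 and P4hb are not.

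Other members of the same compartment, some with the same promoter element, did not have their 3 highest values on replicates 7, 8 and 9. Canx, the membrane-bound lectin calnexin, stood at 0.31, 0.059, 0.18 and 0.12 on replicates 7 to 10, and its highest values were on replicates 6, 2 and 13, at 1.05, 0.75 and 0.69. Its mean was 0.16 ± 0.45 (SD, n = 14, limma 95% interval -0.14 to 0.47). P4hb, the main protein disulphide isomerase, had a mean of 0.0021 ± 0.52 (SD, n = 14) and values from -1.27 on replicate 12 to 0.77 on replicate 1.

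Hsp90b1, the Hsp90 of the endoplasmic reticulum, stood at 3.21, 0.60, 1.105 and 0.27 on replicates 7 to 10. Its value on replicate 11 was 1.43, and its lowest was -1.36 on replicate 12. Its mean of 0.23 ± 1.14 (SD, n = 14) rested on replicate 7 and was -0.001 without it. Dnajc3, a J-domain protein that restrains the stress kinase response, ran from -2.75 to 1.07 with a median array of 0.068 (mean -0.02 ± 0.98, SD, n = 13). Dnajb11, a J-domain partner of BiP, lay above 0 on 11 of 14 arrays with a mean of 0.17 ± 0.49 (SD, n = 14) and an adjusted p of 0.907 (limma). Its values on replicates 7 to 10 were 0.75, 0.35, 0.41 and 0.36, and its highest was 0.825 on replicate 13.

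Pdia4, a disulphide isomerase with additional thioredoxin-like domains, lay above 0 on 11 of 14 arrays, but replicate 2 stood at -3.33. Its mean of 0.13 ± 1.12 (SD, n = 14) became 0.40 without that array (limma, adjusted p = 0.834). Pdia2, an isomerase best known from the pancreas, had values on 10 arrays with a mean of -0.44 ± 1.74 (SD), which moved to -0.13 without replicate 2 and to -0.80 without replicate 1. Pdia6 was not tested, and its 9 values ran from -0.67 to 1.04.

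Atf4, the transcription factor made when translation is slowed under stress or lack of amino acids, differed between the dye orientations. On the 7 arrays with the knockout in Cy3 every value was above 0, from 0.66 to 1.51. With the knockout in Cy5 the values were -2.22, -0.17, 0.15, -0.31, -4.09, -1.12 and 0.46 on replicates 1, 3, 4, 7, 8, 9 and 13. The orientations do not overlap. The share of all genes that separate in this way was not counted, so the gap is not shown to be particular to Atf4. The means of 1.0 ± 0.29 in Cy3 and -1.04 ± 1.62 in Cy5 (SD, n = 7 each) cancelled to -0.02 ± 1.54 over all arrays.

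The dye term of Atf4 was -1.02 log2 units with an unadjusted p of 0.00286, and did not pass adjustment over all genes (limma, adjusted p = 0.473). If the dye-swapped arrays had not been turned before deposit, this term would be the knockout effect. The 2 Atf4 probes had means of -0.40 and 0.26. Over the members, 0 of 70 dye terms were called by limma (0.0431% of all genes), and 4 had an unadjusted p below 0.05 (7.42% of all genes), those of Atf4, Hspa1l, Cct2 and Cct8.

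**Figure D4:**
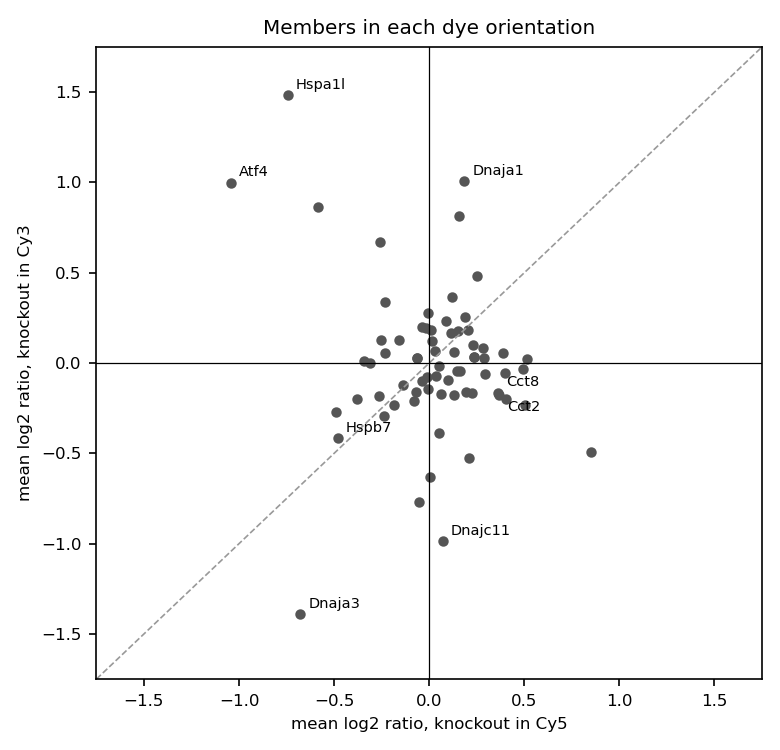
Mean log2 ratio of each member over the arrays with the knockout in Cy5 (horizontal) and in Cy3 (vertical), with the line of equal values dashed. Atf4 and Hspa1l lie far above the line, at -1.04 and 1.0 and at -0.75 and 1.48, while Hspb7 lies near it.

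Among the Hsp70 and Hsp110 proteins, the ATP-driven chaperones that hold short unfolded stretches, all 8 tested members had a mean above 0, with a median of 0.14 and a range of 0.068 to 0.45. With the Cy3 arrays turned, 5 lay above 0 and 3 below (Hspa1l, Hspa1a and Hsph1). None had an unadjusted p below 0.05, and the smallest adjusted p was 0.934 (limma). Hspa9, the Hsp70 of mitochondria, was the best bounded of them, at 0.09 ± 0.30 (SD, n = 14) with an interval of -0.15 to 0.34, and its 4 probes had means between 0.058 and 0.16. Hsph1, the exchange factor Hsp105, had a mean of 0.07 ± 0.50 (SD, n = 14). Hspa4, another exchange factor of the Hsp110 group, had a mean of 0.19 ± 0.83 (SD, n = 14), with probe means from -0.09 to 0.56.

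The stress-inducible Hsp70 gene Hspa1a had 11 values from -0.66 to 2.32, with a mean of 0.23 ± 0.87 (SD), and its near-identical copy Hspa1b had 7 and was not tested. The files do not show how far these copies and Hspa1l hybridise to each other's probes. Hspa1l, a relative known from the testis, had the highest mean of the family, 0.45 ± 1.84 (SD, n = 13), with a low of -2.48, a median array of 0.37 and a high of 4.95 on replicate 5. Without that array the mean was 0.08. Its means by dye were -0.75 for Cy5 and 1.48 for Cy3 (limma dye term, unadjusted p = 0.00997, adjusted p = 0.537).

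Hsp90aa1, the inducible cytosolic Hsp90 that matures kinases and steroid receptors, had a mean of 0.22 ± 0.64 (SD, n = 14, limma 95% interval -0.16 to 0.60). Replicates 2 and 1 were its highest at 1.34 and 1.09, replicate 7 its lowest at -0.86, and its 2 probes had means of -0.12 and 0.45. Replicate 7, the highest array for Hsp90b1, was thus the lowest for Hsp90aa1.

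Hspd1 (Hsp60), which folds proteins inside mitochondria as a barrel closed by a lid of Hspe1 (Hsp10), had a mean of 0.18 ± 0.42 (SD, n = 14). Its lowest value was -0.39, its median array 0.15 and its highest 1.15 on replicate 2, and its 2 probes had close means of 0.19 and 0.21. Its 95% interval was -0.10 to 0.46 (limma, adjusted p = 0.903). Hspe1, which shares the promoter region, had a mean of 0.14 ± 0.76 (SD, n = 12). It stood at 1.03 and 1.06 on replicates 11 and 12, where Hspd1 stood at -0.39 and -0.25, and at -1.70 on replicate 13, where Hspd1 stood at 0.40.

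The cytosolic chaperonin folds actin and tubulin in a double ring of 8 kinds of subunit. The 8 tested Cct genes are not the full ring, since they include the testis form Cct6b and the Cct8-like gene Cct8l1 and lack Cct5 and Tcp1. They had 4 means above 0 and 4 below, from -0.23 (Cct4) to 0.28 (Cct6a), with a median of 0.041. Cct3 lay above 0 on 11 of 14 arrays, at 0.16 ± 0.32 (SD, n = 14). Cct6a had a mean of 0.28 ± 1.51 (SD, n = 13) and values from -2.36 to 3.39. Cct5 was not tested, with 9 values from -3.53 to 1.24.

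Cct2 and Cct8 differed by dye. Cct2 had means of 0.37 on the Cy5-knockout arrays and -0.18 on the Cy3-knockout arrays, and Cct8 of 0.36 and -0.16. The unadjusted p of the dye term was 0.0364 for Cct2 and 0.0487 for Cct8, and neither passed adjustment (limma, adjusted p = 0.621 and 0.662).

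J-domain proteins start the ATP cycle of Hsp70 and bring it its clients. They were the largest family, with 34 tested members, 16 means above 0 and 18 below, and a median of -0.02. Dnaja3, a mitochondrial J-domain protein, had the lowest mean of all members, -1.06 ± 1.47 (SD, n = 13), and lay below 0 on 10 of 13 arrays. Replicates 6, 5 and 4 carried most of this at -3.91, -3.76 and -2.98, while replicates 2 and 3 stood at -1.025 and -0.75. The remaining 8 values lay between -0.44 and 0.21. Its limma estimate of -1.03 had a 95% interval of -1.83 to -0.23, an unadjusted p of 0.015 and an adjusted p of 0.832.

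Leaving out replicate 5 or 6 moved the mean of Dnaja3 to -0.84 or -0.82. With the Cy3 arrays turned its mean was 0.44 (limma, adjusted p = 0.845), so its sign depends on the direction read from the codes. Dnajc11, a mitochondrial membrane protein, had a mean of -0.51 ± 0.99 (SD, n = 11), lay below 0 on 6 of 11 arrays and had means of 0.07 for Cy5 and -0.99 for Cy3.

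Dnaja1, a cytosolic partner of Hsp70, had the highest mean of all members, 0.60 ± 1.55 (SD, n = 14), and lay above 0 on 10 of 14 arrays, but with the Cy3 arrays turned its mean was -0.41. Replicate 11 stood at 5.70, and without it the mean was 0.20 (limma, adjusted p = 0.896). Dnajc4 had a mean of 0.36 ± 0.94 (SD, n = 13) with a median array of -0.06, so a few high arrays set it. Dnajc7, a co-chaperone of Hsp70 and Hsp90, had the widest spread, 0.18 ± 2.01 (SD, n = 14), with a highest value of 6.21 on replicate 1. Its median array was -0.16, and its 2 probes had means of -0.062 and -0.017. Dnajc14 had the narrowest spread, -0.21 ± 0.27 (SD, n = 14), and lay below 0 on 11 of 14 arrays (limma, unadjusted p = 0.0743, adjusted p = 0.903).

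Dnajb1, the main heat-inducible J-domain protein, had 11 values from -3.09 to 2.46 and a mean of 0.07 ± 1.49 (SD). Different probes of a gene did not always point the same way. Probe means had opposite signs and lay over 0.5 apart in 10 members, namely Hspa4, Hsp90aa1, Dnajb6, Dnajb8, Dnajc27, Dnajc5b, Dnajc6, Cct6b, Pdia4 and Atf4. The gap was 1.25 in Dnajc27 (-0.81 and 0.44) and 1.11 in Dnajc6 (-0.33 to 0.78).

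The small heat shock proteins hold unfolded proteins without ATP, and several are known from muscle. Their 7 tested members had 3 means above 0 and 4 below, with a median of -0.02. Hspb7, known from heart muscle, had a mean of -0.45 ± 0.75 (SD, n = 14) and lay below 0 on 12 of 14 arrays. Its lowest values were -1.83, -1.80 and -1.29 on replicates 2, 7 and 11, its median array was -0.29, and replicates 5 and 14 stood above 0 at 0.69 and 0.41. The limma 95% interval was -0.88 to -0.01, with an unadjusted p of 0.0445 and an adjusted p of 0.903.

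The Hspb7 means in the 2 dye orientations were close, -0.48 for Cy5 and -0.41 for Cy3, and leaving out single arrays gave -0.54 to -0.34. Its 2 probes had means of -0.64 and -0.14. Hspb1 (Hsp25), the small heat shock protein that fibroblasts are known to induce on heating, had a mean of -0.27 ± 0.99 (SD, n = 13). Hspb3 had a mean of 0.46 ± 1.5 (SD, n = 13), with replicate 10 at 5.14, and without that array the mean was 0.07. Hspb8, which works with Bag3 in clearing clumped proteins, had a mean of 0.20 ± 1.03 (SD, n = 14) and its 3 lowest values on replicates 7, 8 and 9.

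**Figure D5:**
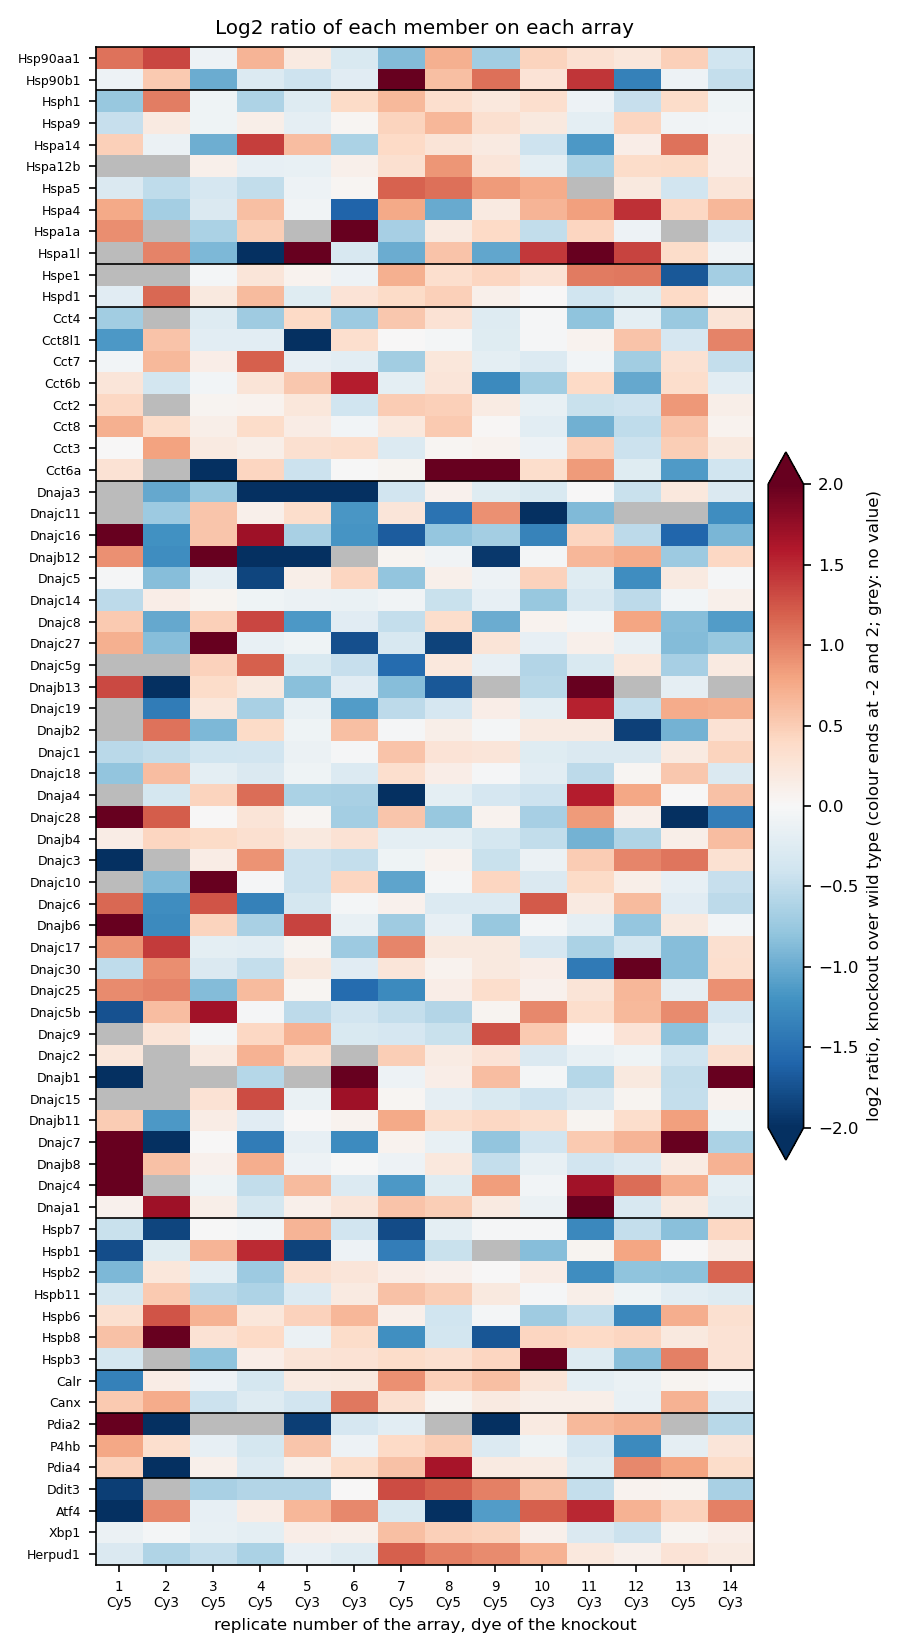
Log2 ratio of knockout over wild type for each of the 70 members (vertical, grouped by role, lowest to highest mean in each) on each of the 14 arrays (horizontal, with the dye of the knockout), coloured from -2 in blue to 2 in red, with grey where an array gave no value. Extreme cells fall most often on replicates 1 and 2, and Hspa5, Herpud1 and Ddit3 are red on replicates 7 to 10.

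Single extreme arrays set several of the larger means. Replicate 1 held the value of largest size for 11 members and replicate 2 for 10, which is 15.7% and 14.3% of members against 14.1% and 18.9% of all genes. These are also the arrays with the most missing values. Replicate 14 held the value of largest size for no member, against 5.49% of all genes. Leaving out replicates 1 and 2 together, chosen after the data had been seen, gave 0 called members of 70 (limma, smallest adjusted p = 0.869), 3 with an unadjusted p below 0.05, and a median of 0.03.

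Genes that work with the members were counted from lists of the same pathways, and limma called none in any of them. Of 26 tested sensors and targets of the unfolded protein response outside the symbol rule, 13 had a mean above 0 and 13 below, and 2 had an unadjusted p below 0.05, both lower. Ero1a, the oxidase that recharges the disulphide isomerases, was the more even of them, at -0.43 ± 0.34 (SD, n = 14) and below 0 on 13 of 14 arrays (limma, unadjusted p = 0.00239, adjusted p = 0.584). Its values ran from -1.28 on replicate 11 to 0.056 on replicate 8. Atf3, a stress-induced transcription factor, was at -0.43 ± 0.73 (SD, n = 14), with -2.14 on replicate 1 and 0.69 on replicate 7. Ero1a too had its 3 highest values on replicates 7, 8 and 9, but these were only -0.085, 0.056 and -0.182. Replicates 5 and 6 were close behind at -0.213 and -0.211. It was 1 of 26 genes of its list (3.85%), beside 1.39% of all genes.

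Of 25 tested targets of Atf4 in the amino acid response, 13 means lay above 0 and 12 below, with 1 unadjusted p below 0.05 in each direction, Nars (asparaginyl-tRNA synthetase) at 0.27 ± 0.36 (SD, n = 14) and Atf3. The tRNA synthetase Wars, the amino acid transporter Slc7a5 and asparagine synthetase (Asns) had their 3 highest values on replicates 7, 8 and 9, and Wars stood there at 1.02, 0.70 and 0.58. This is 3 of 25 genes (12%), beside the 1.39% of all genes.

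Of 19 tested genes of degradation from the endoplasmic reticulum, 9 means lay above 0 and 10 below, and Herpud2 alone had an unadjusted p below 0.05, at -0.40 ± 0.57 (SD, n = 14). Of 15 genes of collagen folding, 11 means lay above 0 and 4 below, with 0 at an unadjusted p below 0.05. Serpinh1 (Hsp47), the collagen chaperone, had a mean of 0.07 ± 0.48 (SD, n = 14) and stood at 0.73, 0.38 and 0.41 on replicates 7, 8 and 9, below replicate 2 at 1.13. Neither list had a gene with its 3 highest values on replicates 7, 8 and 9.

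From the list of co-chaperones, which is not limited to the cytosol, 21 genes were tested, with 13 means above 0 and 8 below. Sil1 and Bag1, nucleotide exchange factors of Hsp70 proteins, and Bag5 had an unadjusted p below 0.05, with means of 0.66, 0.25 and -0.73. Of 9 partners of the chaperonin, 5 means lay above 0 and 4 below with 0 at an unadjusted p below 0.05, and the chaperonin subunit Tcp1 had a mean of 0.08 ± 0.38 (SD, n = 14). The tubulin-folding cofactors Tbca and Tbce of this list had their 3 highest values on replicates 7, 8 and 9, which is 2 of 9 genes (22.2%). Of 5 listed heat shock factors and partners 2 were tested, and Hsbp1, which binds heat shock factor 1, had a mean of -0.47 ± 0.71 (SD, n = 14, limma unadjusted p = 0.0266). Of the Hsp90 list 3 genes were tested, and 2 of them are members.

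Markers of other cell types were counted in the same fit. Of 10 macrophage and leukocyte markers tested, limma called 1, Lyz2, which was lower on 14 of 14 arrays with a mean of -1.62 ± 0.96 (SD, adjusted p = 0.0104). Cd68, another macrophage marker, had a mean of -0.51 ± 0.55 (SD, n = 13, limma unadjusted p = 0.00666). Of these 10 markers, 4 means lay above 0 and 6 below. None was called among 14 fibroblast, 7 epithelial, 4 endothelial and 4 muscle markers, of which 3, 1, 1 and 1 had an unadjusted p below 0.05, all of them lower. The 3 fibroblast markers were Dcn at -0.65, Col6a1 at -0.59 and Postn at -0.33. In the same order of cell types, means lay above 0 for 6, 4, 3 and 3 markers and below 0 for 8, 3, 1 and 1. The part of these in the members' values was not tested.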

How the data were processed

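The 14 arrays each compared knockout with wild-type fibroblast RNA. The authors deposited 1 log2 ratio per probe and array. That the base is 2 was read from the values, and for scanning, background correction and normalization the labels give no method. The arrays' deposited medians lay between -0.334 and 0.2445. Per the labels' protocols RNA was labelled indirectly with Cy3 or Cy5, and that text speaks of organs and a reference pool, whereas the channel labels name fibroblasts and were followed.

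Values above 12 in size (1 repeated code per array, 91 to 315 cells) were set to missing, each array was centred on its median, and probes were averaged per gene. Of 20355 probes, 14030 had 1 gene symbol in the platform table, 5 had several and 6320 none. All 74 genes of the symbol rule matched RefSeq by gene identifier. Genes with values on at least 10 arrays were fitted in limma 3.58.1 (R 4.3.3) with a dye term (1 or -1) beside the intercept, which was tested against 0. P-values were adjusted by Benjamini-Hochberg over all 9290 genes and called below 0.05. The fit was tested on simulated data. Means are over arrays with a value, and limma estimates weigh both dyes equally, so they differ slightly where values are missing.

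Members and lists were chosen with earlier results of these data known. Genes were named if they had an unadjusted p below 0.05, were among the 4 highest or 4 lowest means, had probes over 0.5 apart with opposite signs, or were on a list of central chaperones and stress genes. Others are named for the pattern across arrays or for their role, after their values were seen. Protein sequences were not used here.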

Additional observations from a re-analysis of the deposited data

How the results depend on the processing

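All 29 alternatives gave 0 called members, and 0 called dye terms wherever a dye term was fitted. They covered the direction of the Cy3 arrays, centring, scale, probe summary, missing values, coded extremes, dye term, prior, block, either dye alone and each array left out. The members' smallest adjusted p (limma) ran from 0.443 with the knockout in Cy3 only to 1 with arrays of like number and dye as a random block, and 1 to 5 members had an unadjusted p below 0.05, out of 43 to 74 tested. The members' median ran from -0.02 (Cy3 only) to 0.075, and with the coded extremes kept it was 0.005. Of 28 named genes, Dnaja3 at 0.44 and Dnajc11 at 0.57 moved by more than 1 SD between arrays with the Cy3 arrays turned, a setting that exchanges the mean and the dye term. Leaving out 1 array of 14 cannot move a mean that far, and the settings that alter only the test leave it as it was, so smaller moves show no stability. The sign differed in 70 of 800 values under the alternatives, all for genes without a call. No paired analysis was possible because each array is itself the comparison and there is a single group of 14. The ratios used here carry no intensity, so the share of dim spots behind a ratio is not known.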
